A study of Mus musculus with 7 samples.

Results

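Interferon-stimulated genes were followed gene by gene in cells sorted from mouse femurs. The 34 genes were taken by symbol, each matched to 1 identifier, out of 42687 identifiers in the deposited count table. Of them 32 passed the filter on low counts, which left 14304 genes in all for testing, and Mx1 and Mx2 did not pass. The question for each gene was whether its level followed the diet or the share of a library's counts that came from red cell genes. The cells carried CD24 and CD29 (integrin beta 1) on their surface, were released from femurs by mechanical and enzymatic digestion and sorted by flow cytometry, and are called skeletal stem cells in the labels. All mice were C57BL/6, with no transgene or agent named, and were 3 months old when the diets began. The high fat diet (HFD, 60% fat) gave 3 libraries, HFD 2, HFD 3 and HFD 4, and the control low fat diet (LFD, 10% fat) gave 4, LFD 1 to LFD 4, all after 4 weeks of feeding.

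Interferons are secreted proteins that warn cells of viruses. Type I and type III interferons bind their receptors, Janus kinases phosphorylate STAT2, and it joins IRF9 in the complex ISGF3, which enters the nucleus and binds the interferon-stimulated response element (ISRE) of its target genes. The induced proteins sense viral nucleic acids, block viral RNA and protein synthesis, and include both amplifiers and brakes of the same signal. In bone marrow, interferon signals are known to act on blood-forming cells as well as on bone-forming and bone-resorbing cells.

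The promoters of 4 genes whose levels are described below, Isg15, Ifit1, Rsad2 and Oas3, hold letters that match the core of the ISRE. The promoter of Oasl2, which had the smallest p for diet, is shown beside them because it lacked the same letters. The windows run from 250 bases before to 50 bases after the annotated start on the gene's own strand, in RefSeq's GRCm38.p6 (the mm10 build), with each match to the ISRE core in capitals and the rest in lower case.
Isg15, chr4:156200769-156201068, minus strand: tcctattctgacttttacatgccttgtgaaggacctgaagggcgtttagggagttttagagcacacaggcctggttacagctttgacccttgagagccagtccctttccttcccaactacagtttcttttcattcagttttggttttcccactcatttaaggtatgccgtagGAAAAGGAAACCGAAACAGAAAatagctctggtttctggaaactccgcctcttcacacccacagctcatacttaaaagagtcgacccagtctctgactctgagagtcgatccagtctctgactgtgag
Ifit1, chr19:34640639-34640938, plus strand: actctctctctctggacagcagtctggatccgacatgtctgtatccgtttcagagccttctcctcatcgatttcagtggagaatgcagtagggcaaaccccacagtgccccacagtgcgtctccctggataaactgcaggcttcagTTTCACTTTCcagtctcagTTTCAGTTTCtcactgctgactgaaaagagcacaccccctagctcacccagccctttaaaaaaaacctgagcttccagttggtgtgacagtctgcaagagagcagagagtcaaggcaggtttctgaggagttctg
Rsad2, chr12:26456403-26456702, minus strand: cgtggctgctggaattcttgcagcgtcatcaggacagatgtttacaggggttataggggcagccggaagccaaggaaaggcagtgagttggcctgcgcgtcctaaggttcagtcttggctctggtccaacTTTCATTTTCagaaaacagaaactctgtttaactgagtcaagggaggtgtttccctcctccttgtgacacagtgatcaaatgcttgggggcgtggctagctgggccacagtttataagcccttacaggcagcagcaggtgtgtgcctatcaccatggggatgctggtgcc
Oas3, chr5:120777610-120777909, minus strand: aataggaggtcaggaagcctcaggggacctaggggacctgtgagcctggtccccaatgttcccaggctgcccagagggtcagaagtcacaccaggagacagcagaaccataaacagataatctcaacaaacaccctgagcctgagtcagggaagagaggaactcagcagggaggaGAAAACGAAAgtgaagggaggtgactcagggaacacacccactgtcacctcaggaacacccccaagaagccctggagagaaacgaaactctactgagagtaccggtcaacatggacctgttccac
Oasl2, chr5:114896684-114896983, plus strand: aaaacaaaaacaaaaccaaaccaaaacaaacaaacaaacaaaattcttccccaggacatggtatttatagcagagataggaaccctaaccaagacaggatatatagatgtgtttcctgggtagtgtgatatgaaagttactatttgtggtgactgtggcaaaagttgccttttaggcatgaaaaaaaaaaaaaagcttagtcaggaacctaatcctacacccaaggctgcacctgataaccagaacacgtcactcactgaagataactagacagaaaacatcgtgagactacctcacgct
The core was searched as GAAANNGAAA on both strands, so that a match on the other strand reads TTTCNNTTTC. In Isg15 3 overlapping matches began 78, 72 and 66 bases before the start and are capitalised as 1 run. Ifit1 held 2 matches, 104 and 85 bases before its start, Rsad2 held 1 at 120 and Oas3 held 1 at 75.

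Of the 34 genes 24 had a promoter in the RefSeq table, with 27 promoters between them. At least 1 ISRE core was held by 15 of these 24 genes (62.5%). Counted per promoter, it was held by 15 of the 27, against 3.44% of all 32851 promoters of that length. The 9 without a match were Ifi35, Ifi44, Ifit2, Irf7, Irf9, Oasl1, Oasl2, Trim25 and Xaf1. The other 10 genes, which had no entry, were Oas2, Rtp4, Dhx58, Mx2, Mx1, Parp14, Ifi27, Usp18, Parp9 and Zbp1. A match describes letters in the window, not binding. The 15 genes with an ISRE core and the 9 without had median log2 differences between diets of -0.63 and -0.96, and median slopes against the red cell share of 0.79 in both sets.

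Counts were 17391613 to 24681838 per library. Values below are CPM, counts scaled by the TMM-adjusted library total, and a log2 difference is HFD against LFD with its standard error. The genes of the 19-gene erythroid list, led by the globins, took 2.85%, 8.18% and 11.5% of counts in HFD 2, HFD 3 and HFD 4, and 10.9%, 14.4%, 15.8% and 12.3% in LFD 1 to LFD 4. HFD 2 stood far below every other library, and HFD 4 lay above LFD 1. The groups differed in log2 share by -1.04 (exact permutation test over 35 splits, two-sided p = 0.0571, adjusted p = 0.143 over 10 cell type lists, smallest possible p 0.0286). Xist had 0 counts in every HFD library and 257 to 526 in each LFD library, while 4 genes of the Y chromosome (Eif2s3y, Uty, Kdm5d and Ddx3y) summed to 2494 to 3405 counts in HFD libraries and 1 to 5 in LFD libraries. The labels give no sex, so diet and sex cannot be told apart in any difference below. In sorted but bulk RNA, fewer cells of a type and less RNA per cell cannot be told apart either. No label states that each library is a separate animal, so the p-values speak only of how far these libraries scatter, and some of that scatter may be technical.

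Most of the 32 tested interferon-stimulated genes measured lower in the HFD libraries, and most had higher levels where the erythroid share was higher. Their list was chosen with earlier results of these data known. Its counts beside the share of all genes are therefore descriptions, not independent support. A further list of interferon-stimulated genes, given below, was split more evenly by diet (14 above 0 and 17 below). Against diet alone, 26 of the 32 tested genes had a log2 difference below 0 and 6 above 0 (Bst2, Ddx58, Ifit3, Oas2, Parp14 and Zbp1), where 48.5% of all tested genes were below 0 and 51.5% above. The median over the 32 was -0.92, beside 0.02 over all genes tested. In edgeR's quasi-likelihood test with Benjamini-Hochberg adjustment, 0 of the 32 passed an adjusted p of 0.05. Of all genes 0.035% passed it, and 0 did once the 5 sex-linked genes were left out. At an unadjusted p under 0.05, 6 of the 32 were lower in HFD, Ifi27, Ifi35, Ifit1, Irf7, Oas1a and Oasl2, against 2.35% of all genes. None were higher, against 5.18% of all genes. In the same 6 genes every HFD library lay below every LFD library, as in 3.47% of all genes, and in 0 of the 32 did all HFD libraries lie above (8.4% of all genes). DESeq2 called 4 of the 32 (Ifit1, Irf7, Oas1a and Oasl2, with 2.03% of all genes called) and limma-voom called Oasl2 (0.196% of all genes called). Without LFD 1, in which most of these genes were the lowest of the LFD libraries, 14 of the 32 were lower in HFD at an unadjusted p under 0.05, the same 6 among them, against 6.23% of all genes, and 25 of the 32 were below 0 (44.8% of all genes). With 1 surrogate variable, a term for unlabelled variation estimated from the counts, 18 of the 32 were below 0 and 14 above (48.9% of all genes below).

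The slope against the erythroid share was fitted beside diet as the log2 change per doubling of the share. It was above 0 for 25 of the 32 genes and below 0 for 7 (Ddx58, Gbp3, Ifi44, Ifit2, Ifit3, Rtp4 and Zbp1), where 48.4% of all genes were above 0 and 51.6% below. The median slope was 0.70, beside -0.02 over all genes. No gene in the table passed edgeR's adjusted threshold for this slope (0.0% called), and 12 of the 32 had a positive slope with an unadjusted p under 0.05, against 9.45% of all genes. These were Ifi27, Ifit1, Igtp, Irf7, Irgm1, Isg15, Oas3, Oasl2, Rsad2, Stat2, Usp18 and Xaf1. Of negative slopes 0 of the 32 reached that level, against 1.17% of all genes. DESeq2 called 9 of the 32 for the slope (Ifit1, Irf7, Isg15, Oas3, Oasl2, Rsad2, Stat2, Usp18 and Xaf1, with 5.42% of all genes called), and limma-voom called Ifit1, Isg15 and Rsad2 (2.22% of all genes called). Without LFD 1, edgeR called 6 of the 32 (Ifit1, Irf7, Isg15, Oas3, Rsad2 and Usp18, with 3.33% of all genes called). The call also depended on how the share was measured, since edgeR called 11 of the 32 with the erythroid list less its globin genes (5.63% of all genes called), 4 with the percent not logged (2.59%) and 0 with the globin genes alone. With the share as the sole term and no diet in the fit, it called 7 (4.08%).

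At equal erythroid share, the difference between diets had a median of -0.07 over the 32 genes, beside -0.92 by diet alone. Over all genes these medians were 0.05 and 0.02. The erythroid shares of the diets overlapped only through HFD 4 (11.5%) and LFD 1 (10.9%). A value at equal share thus rests mostly on a straight line drawn beyond the libraries of each diet, not on matched libraries. The difference was below 0 for 19 of the 32 and above 0 for 13, where 45.4% of all genes were below 0 and 54.6% above. In edgeR 0 of the 32 passed the adjusted threshold (0.00699% of all genes called, and 0 genes with the sex-linked genes left out). At an unadjusted p under 0.05, Ifit1 and Oasl2 were lower, against 1.06% of all genes, and 0 were higher, against 2.59%. DESeq2 called Oasl2 (0.454% of all genes called) and limma-voom called 0 (0.0%). The difference at equal share lay within 0.2 of 0 on the log2 scale for Eif2ak2, Gbp2, Irf9, Isg15, Oas3, Rsad2, Usp18 and Xaf1. Their standard errors ran from 0.26 (Rsad2) to 1.49 (Gbp2). By diet alone Gbp2 was at -0.10 and Eif2ak2 at -0.33. How many of all genes lay that near 0 was not counted. The counts of genes below 0 and at an unadjusted p under 0.05 rested on single libraries. Without HFD 4, 10 of the 32 were below 0 (45.2% of all genes) with a median of 0.32, and Ifit2 was the sole gene lower at an unadjusted p under 0.05 (0.617% of all genes), while without LFD 1, 23 were below 0 (45.5% of all genes) and 6 were lower at that level (1.4% of all genes). HFD 2, with the lowest share, carries much of both fits. Without it, 25 of the 32 genes measured lower in HFD (50.1% of all genes), with a median of -0.63 and the same 6 genes at an unadjusted p under 0.05 (1.2% of all genes), and 26 of the 32 had a positive slope (44.0% of all genes), 5 of them at that level (Ifit1, Igtp, Irf7, Rsad2 and Stat2, against 4.79% of all genes) and 1, Ddx58, negative at that level (5.18% of all genes). With the replicate number as a block, 27 of the 32 were below 0 at equal share (45.7% of all genes) with a median of -0.42, although libraries of the same number did not deviate together. That fit has almost as many terms as libraries, so little is left to measure the scatter.

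**Figure D1:**
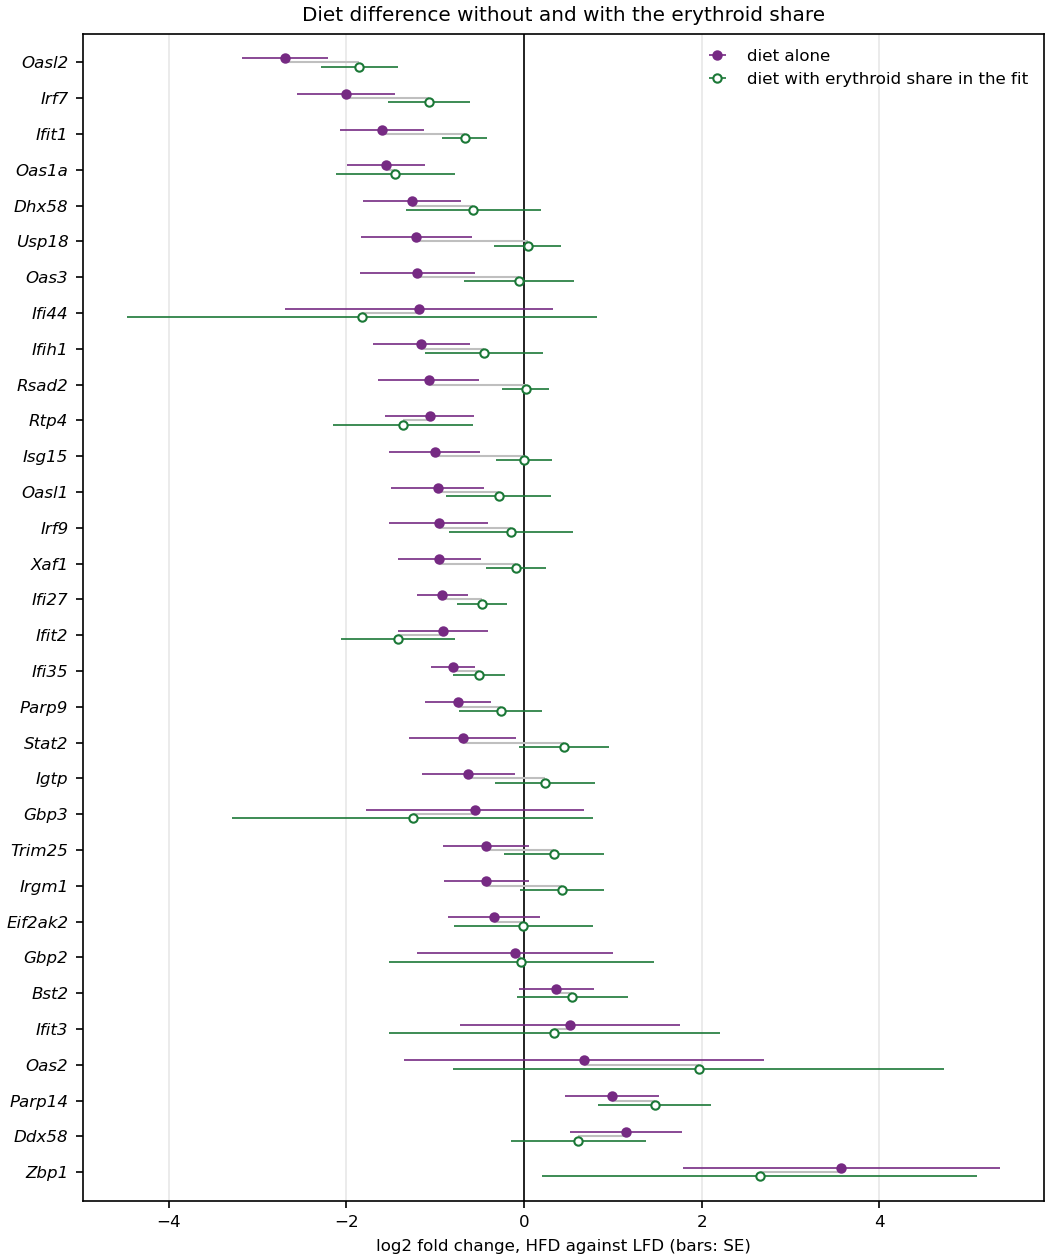
The log2 difference of HFD against LFD for the 32 tested interferon-stimulated genes, by diet alone and at equal erythroid share, on a log2 axis with bars for the standard error. Filled and open markers lie apart for Rsad2, Isg15 and Usp18, which sit near 0 at equal share, while Oasl2 stays at -1.85.

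Among the transcription factors of the pathway, Irf7 had the largest difference by diet. Irf7 (ENSMUSG00000025498, chromosome 7, 141262706 to 141266481), the factor that amplifies type I interferon production and is itself interferon-induced, measured 26.3, 67.1 and 96.5 CPM in HFD 2, HFD 3 and HFD 4, against 107, 377, 287 and 245 CPM in LFD 1, LFD 2, LFD 3 and LFD 4. All 3 HFD libraries were below all 4 LFD libraries, and within each diet the library with the smallest erythroid share was the lowest. The log2 difference was -2.003 ± 0.55 (edgeR's quasi-likelihood test, adjusted p = 0.355), the slope 1.03 ± 0.29 per doubling of the share, and the difference at equal share -1.07 ± 0.46. Stat2, the STAT that joins ISGF3, measured 6.399, 20.1 and 27.8 CPM in HFD 2, HFD 3 and HFD 4, against 11.1, 33.8, 48.9 and 23.2 CPM in LFD 1, LFD 2, LFD 3 and LFD 4. Its groups overlapped, with LFD 1 below both HFD 3 and HFD 4. Its slope of 1.24 ± 0.33 (edgeR, unadjusted p = 0.00757, adjusted p = 0.206) stood beside a log2 difference by diet of -0.69 ± 0.60, and the difference at equal share was above 0, at 0.45 ± 0.51. Without HFD 2 the slope of Stat2 was 2.58 and its difference by diet -0.29. Irf9, which gives ISGF3 its DNA contact, spanned 37.4 to 91.2 CPM in HFD and 35.7 to 193 CPM in LFD, with a log2 difference of -0.96 ± 0.56 and a slope of 0.78 ± 0.44. Reads of Irf7 and Irf9 could in part belong to the neighbours Phrf1 and Rnf31, whose annotated exons overlap theirs by 45 and 123 bases.

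ISG15 is a ubiquitin-like protein that is attached to other proteins, USP18 removes it and also blocks the type I interferon receptor, and TRIM25 is a ubiquitin ligase that activates the RNA sensor RIG-I. Isg15 measured 62.9, 231 and 245 CPM in HFD 2, HFD 3 and HFD 4, against 198, 431, 486 and 332 CPM in LFD 1, LFD 2, LFD 3 and LFD 4. HFD 2 was the lowest library, and HFD 3 and HFD 4 lay above LFD 1 and below the other 3 LFD libraries. Usp18 showed the same order of groups, with 6.12, 38.9 and 39.4 CPM in HFD 2, HFD 3 and HFD 4, against 32.3, 87.7, 78.7 and 62.4 CPM in LFD 1, LFD 2, LFD 3 and LFD 4. Neither passed edgeR's adjusted threshold by diet, with log2 differences of -1.01 ± 0.51 for Isg15 and -1.21 ± 0.62 for Usp18 (adjusted p = 0.685 and 0.692). Usp18 had a slope of 1.52 ± 0.27 and Isg15 one of 1.14 ± 0.21 (edgeR, unadjusted p = 0.000898 and 0.00117, adjusted p = 0.122 for both). At equal share the differences by diet were 0.00 ± 0.31 for Isg15 and 0.04 ± 0.38 for Usp18, and their signs turned with the normalization. Trim25 spanned 16.4 to 38.1 CPM in HFD and 13.9 to 56.8 CPM in LFD, with a log2 difference of -0.43 ± 0.49.

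The IFIT proteins bind viral RNA and stall its translation, and their 3 genes had log2 differences by diet of both signs. Ifit1 (ENSMUSG00000034459, chromosome 19, 34640871 to 34650009) measured 10.9, 32.7 and 42.9 CPM in HFD 2, HFD 3 and HFD 4, against 61.8, 91.3, 125 and 70.2 CPM in LFD 1, LFD 2, LFD 3 and LFD 4. The groups did not overlap, since the highest HFD library, HFD 4, was below LFD 1. It had a log2 difference of -1.597 ± 0.47 (edgeR, unadjusted p = 0.00967, adjusted p = 0.418), a slope of 1.06 ± 0.16 (unadjusted p = 0.000336, adjusted p = 0.122), and a difference at equal share of -0.67 ± 0.25. Ifit1 was thus among the 6 genes lower by diet and the 12 with a positive slope at an unadjusted p under 0.05, and one of 2 that reached it at equal share. Ifit2 spanned 3.48 to 9.48 CPM in HFD and 5.42 to 15.6 CPM in LFD with a slope of -0.48 ± 0.39, and Ifit3 spanned 2.82 to 4.27 CPM in HFD and 0 to 4.92 CPM in LFD with a log2 difference of 0.52 ± 1.24. Ifit3 has a near-identical copy, Ifit3b, and how reads shared by such copies were counted is not given in the sources used here.

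Oligoadenylate synthetases make short adenylate chains that switch on the RNA-degrading enzyme RNase L when they meet double-stranded RNA, and the OASL proteins are related forms with ubiquitin-like ends. Oasl2 (ENSMUSG00000029561, chromosome 5, 114896936 to 114912234), which had the smallest p for diet of the 32 genes, measured 13.2, 34.1 and 34.2 CPM in HFD 2, HFD 3 and HFD 4, against 86.2, 227, 234 and 154 CPM in LFD 1, LFD 2, LFD 3 and LFD 4. LFD 1, the lowest LFD library, was still above the highest HFD library. The log2 difference of -2.69 ± 0.48 (edgeR, unadjusted p = 0.000521, adjusted p = 0.217) remained -1.85 ± 0.43 at equal share (unadjusted p = 0.00372, adjusted p = 0.962), beside a slope of 0.87 ± 0.26. With HFD 2 left out, Oasl2 was the sole one of the 32 genes lower at equal share with an unadjusted p under 0.05. Oas1a (ENSMUSG00000052776, chromosome 5, 120896256 to 120907521) measured 6.15, 5.700 and 5.59 CPM in HFD 2, HFD 3 and HFD 4, against 7.53, 26.1, 19.2 and 15.7 CPM in LFD 1, LFD 2, LFD 3 and LFD 4. Its 3 HFD values lay within a narrow band below all LFD libraries although their erythroid shares differed, and its slope was 0.09 ± 0.38. The log2 difference of Oas1a was -1.56 ± 0.44 by diet (edgeR, adjusted p = 0.383) and -1.45 ± 0.67 at equal share. Oas1a belongs to a cluster of close paralogs, so its counts are uncertain.

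The other members of this family all had slopes above 0, with an unadjusted p under 0.05 for Oas3 alone, and Oas2 was near the detection limit. Oas3 spanned 36.2 to 145 CPM in HFD and 62.4 to 333 CPM in LFD, with LFD 1 as the sole LFD library inside the HFD range, a slope of 1.22 ± 0.40 (edgeR, unadjusted p = 0.0187) and a difference at equal share of -0.05 ± 0.62. Oasl1, known in mouse to hold back translation of Irf7, spanned 3.602 to 11.5 CPM in HFD and 9.95 to 25.2 CPM in LFD with a log2 difference of -0.97 ± 0.53. Oas2 was at 0 counts in HFD 2, LFD 2 and LFD 3 and at most 4.83 CPM elsewhere, and its slope had a standard error of 4.15, too wide to give a direction.

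**Figure D2:**
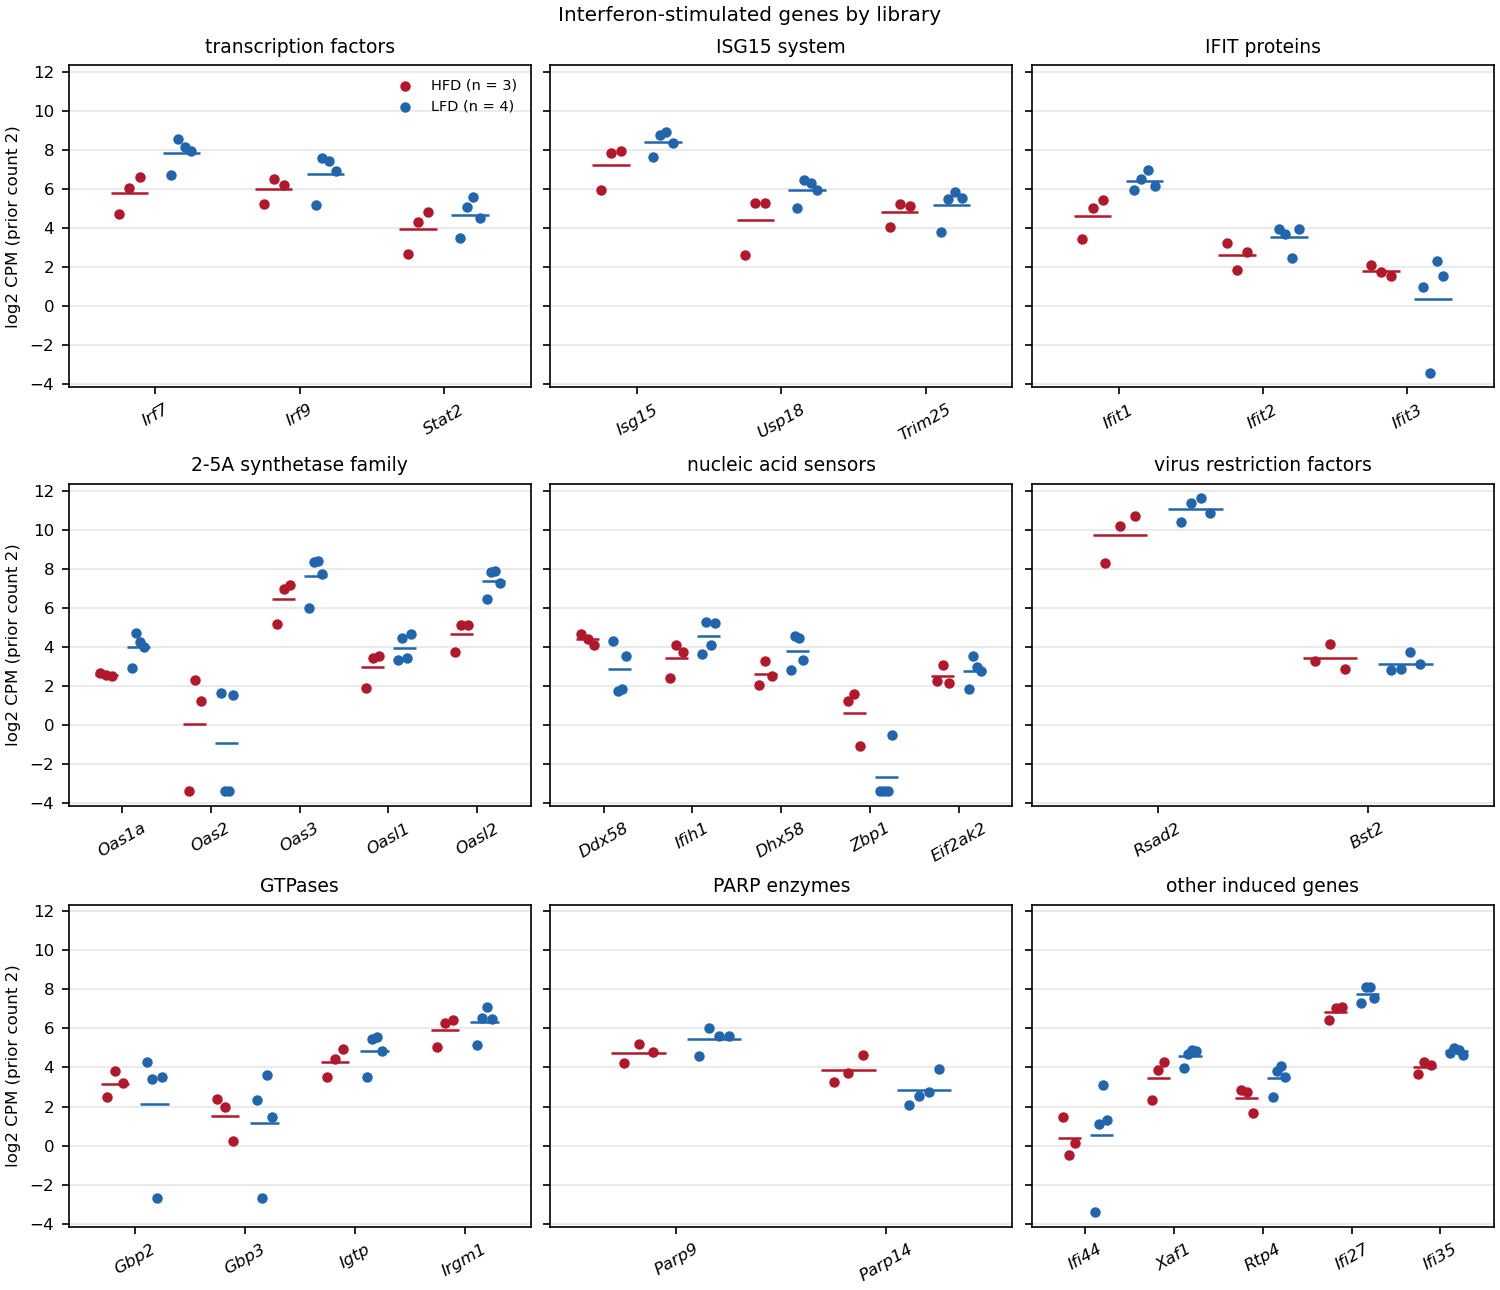
Log2 CPM (prior count of 2) in each library for the 32 tested interferon-stimulated genes, grouped by role, with HFD libraries left of LFD libraries. In Oasl2, Irf7, Ifit1, Oas1a, Ifi27 and Ifi35 the HFD points all lie below the LFD points, and HFD 2 and LFD 1 are often the lowest of their diets.

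The sensors of nucleic acids included the genes with the highest log2 differences. Ddx58, which encodes RIG-I, a sensor of viral RNA ends, measured 24.9, 20.7 and 16.96 CPM in HFD 2, HFD 3 and HFD 4, against 19.3, 3.19, 3.42 and 11.6 CPM in LFD 1, LFD 2, LFD 3 and LFD 4. LFD 2 and LFD 3, with the highest erythroid shares, were the lowest libraries, HFD 2, with the lowest share, was the highest, and LFD 1 fell inside the HFD range. Its log2 difference was 1.15 ± 0.63 and its slope -0.60 ± 0.56, neither at an unadjusted p under 0.05 in edgeR, and without HFD 2 the slope was -3.37 (edgeR, unadjusted p = 0.0409, adjusted p = 0.493). Zbp1, a sensor of Z-form nucleic acids that can trigger cell death, measured 2.27, 2.898 and 0.382 CPM in HFD 2, HFD 3 and HFD 4, against 0, 0, 0 and 0.593 CPM in LFD 1, LFD 2, LFD 3 and LFD 4. It was at 0 counts in 3 of 4 LFD libraries, where 3 counts would correspond to 0.117 to 0.188 CPM, and LFD 4 lay above HFD 4. The fitted difference of 3.57 ± 1.79 (edgeR, adjusted p = 0.685) rests on these low counts.

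Dhx58 (LGP2, a helper and regulator of the other sensors) measured 3.99, 9.71 and 5.49 CPM in HFD 2, HFD 3 and HFD 4, against 6.79, 23.1, 21.9 and 9.79 CPM in LFD 1, LFD 2, LFD 3 and LFD 4. HFD 3 lay above LFD 1 and just below LFD 4, so the groups overlapped, with a log2 difference of -1.27 ± 0.55 (edgeR, unadjusted p = 0.0508). Exons of Dhx58 share 141 bases with the antisense gene Dhx58os, and the strand setting of the counts is not given in the sources used here. Ifih1 (MDA5, a sensor of long double-stranded RNA) spanned 5.25 to 16.9 CPM in HFD and 12.3 to 38.9 CPM in LFD with a log2 difference of -1.16 ± 0.55. Eif2ak2 (PKR, the kinase that stops translation on double-stranded RNA) spanned 4.39 to 8.36 CPM in HFD and 3.43 to 11.5 CPM in LFD with a log2 difference of -0.33 ± 0.52. The sensors therefore included both signs by diet, 2 above 0 and 3 below, and 0 of the 5 reached an unadjusted p under 0.05 by diet or by slope.

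Among the virus restriction factors, Rsad2 (ENSMUSG00000020641, chromosome 12, 26442746 to 26456452) was the most abundant of all 34 genes. It encodes viperin, an enzyme that makes a chain-terminating nucleotide. Rsad2 measured 309.9, 1156 and 1685 CPM in HFD 2, HFD 3 and HFD 4, against 1346, 2604, 3085 and 1813 CPM in LFD 1, LFD 2, LFD 3 and LFD 4. The order of the 7 libraries by Rsad2 was exactly their order by erythroid share, from HFD 2 to LFD 3, and HFD 4 lay above LFD 1. Its log2 difference by diet was -1.07 ± 0.57 (edgeR, adjusted p = 0.693), its slope 1.297 ± 0.18 (unadjusted p = 0.000161, the smallest of the 32 genes, adjusted p = 0.122), and its difference at equal share 0.02 ± 0.26, a value whose sign turned with the normalization. Rsad2 alone made up 38.9% to 58.9% of the summed CPM of the 34 genes. That sum was 796, 2279 and 2859 in HFD 2, HFD 3 and HFD 4, and 2347, 5131, 5621 and 3666 in LFD 1 to LFD 4, of which Rsad2 was the largest single part in every library. Per kilobase of annotated exon, Rsad2 and Isg15 had similar mean levels over the 7 libraries, 395 and 375 CPM per kb, followed by Ifi27 at 122 CPM per kb.

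Bst2 (tetherin, which holds budding virus at the cell surface) spanned 7.21 to 17.7 CPM in HFD and 6.98 to 13.1 CPM in LFD, with groups that overlapped and a log2 difference of 0.36 ± 0.42. Mx1 had 0 counts in every library, where 3 counts would correspond to 0.105 to 0.188 CPM. C57BL/6 mice are known to carry a defective Mx1 allele, and Mx1 was not tested. Mx2 had 9 counts in LFD 2 and 0 in the other libraries, and was not tested either.

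The GTPases, which take part in the defence against intracellular microbes, had groups that overlapped by diet. Igtp spanned 11.3 to 30.2 CPM in HFD and 11.4 to 47.7 CPM in LFD and Irgm1 33.4 to 87.04 CPM in HFD and 35.8 to 137 CPM in LFD, and their slopes of 0.87 ± 0.35 and 0.87 ± 0.30 both had an unadjusted p under 0.05 in edgeR (0.044 and 0.0247). Exons of Igtp overlap those of Irgm2 by 162 bases on the same strand. Gbp2 spanned 5.595 to 14.2 CPM in HFD and 0.0623 to 19.00 CPM in LFD and Gbp3 1.099 to 5.07 CPM in HFD and 0.0626 to 12.1 CPM in LFD, with LFD 3 the lowest library in Gbp2 and the highest in Gbp3. The 4 log2 differences by diet lay between -0.63 (Igtp) and -0.10 (Gbp2), and 0 of 4 reached an unadjusted p under 0.05.

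The PARP enzymes, which attach ADP-ribose to proteins, had opposite signs by diet. Parp14 measured 9.48, 13.1 and 24.6 CPM in HFD 2, HFD 3 and HFD 4, against 4.17, 5.701, 6.66 and 15.1 CPM in LFD 1, LFD 2, LFD 3 and LFD 4. HFD 4 was the highest library and LFD 4 lay above HFD 2 and HFD 3, so the groups overlapped. Its log2 difference was 0.99 ± 0.53 (edgeR, adjusted p = 0.693) and was 1.47 ± 0.64 at equal share. Parp9, whose protein works with the ubiquitin ligase DTX3L, spanned 18.9 to 36.4 CPM in HFD and 23.8 to 64.7 CPM in LFD with a log2 difference of -0.74 ± 0.37, and 458 bases of its exons overlap those of Dtx3l on the other strand.

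Of the remaining induced genes all 5 had a log2 difference below 0. Ifi27, a small hydrophobic protein, measured 85.9, 132 and 138 CPM in HFD 2, HFD 3 and HFD 4, against 159.9, 276, 273 and 190.4 CPM in LFD 1, LFD 2, LFD 3 and LFD 4. Ifi35, a partner of NMI, measured 12.4, 19.5 and 17.1 CPM in HFD 2, HFD 3 and HFD 4, against 26.96, 31.9, 29.8 and 24.9 CPM in LFD 1, LFD 2, LFD 3 and LFD 4. In both genes every HFD library was below every LFD library and the spread within diets was small, with log2 differences of -0.92 ± 0.29 for Ifi27 and -0.80 ± 0.25 for Ifi35 (edgeR, unadjusted p = 0.0123 and 0.0112, adjusted p = 0.45 and 0.435). Their slopes were 0.44 ± 0.17 and 0.30 ± 0.19, and at equal share their differences were -0.48 ± 0.28 and -0.51 ± 0.29.

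Xaf1, a partner of the apoptosis inhibitor XIAP, measured 4.86, 14.6 and 19.01 CPM in HFD 2, HFD 3 and HFD 4, against 15.8, 26.00, 29.2 and 28.4 CPM in LFD 1, LFD 2, LFD 3 and LFD 4. HFD 4 lay above LFD 1, so the groups overlapped, and the slope of 1.02 ± 0.23 (edgeR, unadjusted p = 0.00305, adjusted p = 0.152) stood beside a difference at equal share of -0.09 ± 0.34. Rtp4, a receptor transporter that also restricts viruses, measured 7.204, 6.62 and 3.06 CPM in HFD 2, HFD 3 and HFD 4, against 5.501, 13.97, 16.5 and 11.2 CPM in LFD 1, LFD 2, LFD 3 and LFD 4. LFD 1 lay inside the HFD range, and HFD 4, with the highest share of the HFD libraries, was the lowest. Its log2 difference was -1.06 ± 0.50 (edgeR, unadjusted p = 0.0654), with a slope of -0.24 ± 0.45 and a difference at equal share of -1.36 ± 0.79. Ifi44 spanned 0.628 to 2.62 CPM in HFD and 0 to 8.53 CPM in LFD, with a log2 difference of -1.18 ± 1.51.

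Correlation with the erythroid share needed no model of the spread. Pooled over all 7 libraries it held no term for diet, and the mean log2 share was lower in HFD. The pooled r therefore cannot tell diet from share. Pearson's r between log2 CPM (prior count of 2) and the log2 share was computed for all 14304 genes over the 7 libraries, with an exact permutation test over all orders of the libraries and adjustment over all genes. The median r of the 32 genes was 0.73, beside -0.17 over all genes, and r was above 0 for 25 of the 32 (41.5% of all genes). A positive r with an unadjusted p under 0.05 was found for 17 of the 32, against 14.3% of all genes, and 4 of them (Ifi27, Ifit1, Rsad2 and Xaf1) had an adjusted p under 0.05, against 2.08% of all genes. Rsad2 had r = 0.987, p = 0.0002, adjusted p = 0.0305, the smallest p that the permutations can give, and Spearman's rho = 1, p = 0.000397, adjusted p = 0.0427. Ifit1 had r = 0.964, p = 0.000595, adjusted p = 0.0404 (rho = 0.964, p = 0.00278, adjusted p = 0.0538 by Spearman), and Xaf1 r = 0.975, p = 0.000992, adjusted p = 0.0476 (rho = 0.964, p = 0.00278, adjusted p = 0.0538 by Spearman). Ifi27 had r = 0.883, p = 0.000794, adjusted p = 0.0445, with rho = 0.929, p = 0.00675, adjusted p = 0.0704 by Spearman. Zbp1 was the sole one of the 32 with a negative r at an unadjusted p under 0.05 (5.66% of all genes), with r = -0.721, p = 0.0214, adjusted p = 0.155 by Pearson and rho = -0.704, p = 0.105, adjusted p = 0.305 by Spearman in the exact permutation test. Ddx58 also ran the other way, with r = -0.670, p = 0.0657, adjusted p = 0.292 by Pearson and rho = -0.964, p = 0.00278, adjusted p = 0.0538 by Spearman, in the exact permutation test.

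Without HFD 2 and HFD 3, the libraries farthest from the median share, r was 0.991 for Rsad2, 0.901 for Ifit1, 0.812 for Xaf1 and 0.933 for Ifi27. Taken as deviations from each diet's mean, with the exact permutation done within diets (144 orders), r was 0.979 for Rsad2, 0.973 for Ifit1 and 0.935 for Isg15, each at the smallest possible p of 0.00694 (adjusted p = 0.111). By this measure 14 of the 32 had a positive r with an unadjusted p under 0.05, against 13.3% of all genes, 1 (Ddx58) had a negative r at that level, against 7.26%, and 0 had an adjusted p under 0.05 (0.0% of all genes). With HFD 2 left out of the pooled measure, 8 of the 32 had a positive r with an unadjusted p under 0.05 (Ifi27, Ifit1, Irf7, Isg15, Oas1a, Oasl2, Rsad2 and Xaf1), against 5.31% of all genes, and Ddx58 and Oas2 a negative one, against 5.77%, while without LFD 2 the count of positive ones was 11. Without HFD 2, Rsad2 had r = 0.956 (exact permutation p = 0.00278). HFD 2, with the smallest share of its diet, was the lowest HFD library in 22 of the 32 genes (68.8%, against 40.4% of all genes), and LFD 1 the lowest LFD library in 25 (78.1%, against 31.2% of all genes).

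**Figure D3:**
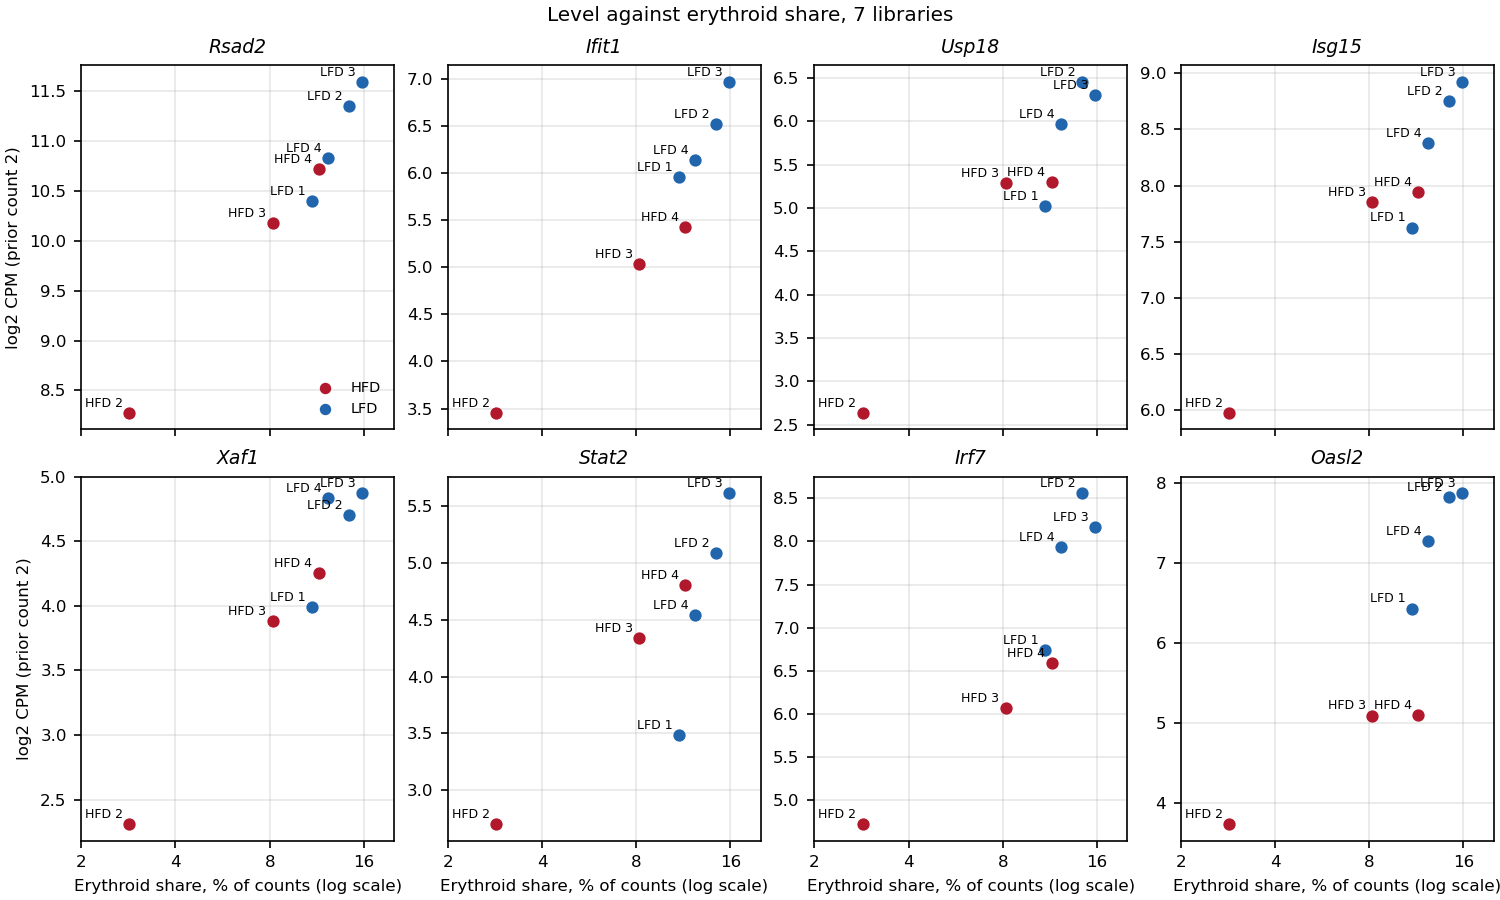
Log2 CPM against the log2 percent of counts in the erythroid list for the 8 interferon-stimulated genes with the smallest p for the slope, 1 point per library, HFD and LFD in separate colours. In Rsad2 the libraries of both diets lie along 1 line, in Isg15 and Usp18 LFD 1 lies just below HFD 3 and HFD 4, and Oasl2 lies lower in HFD 4 than in LFD 1, which had a like share.

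**Figure D4:**
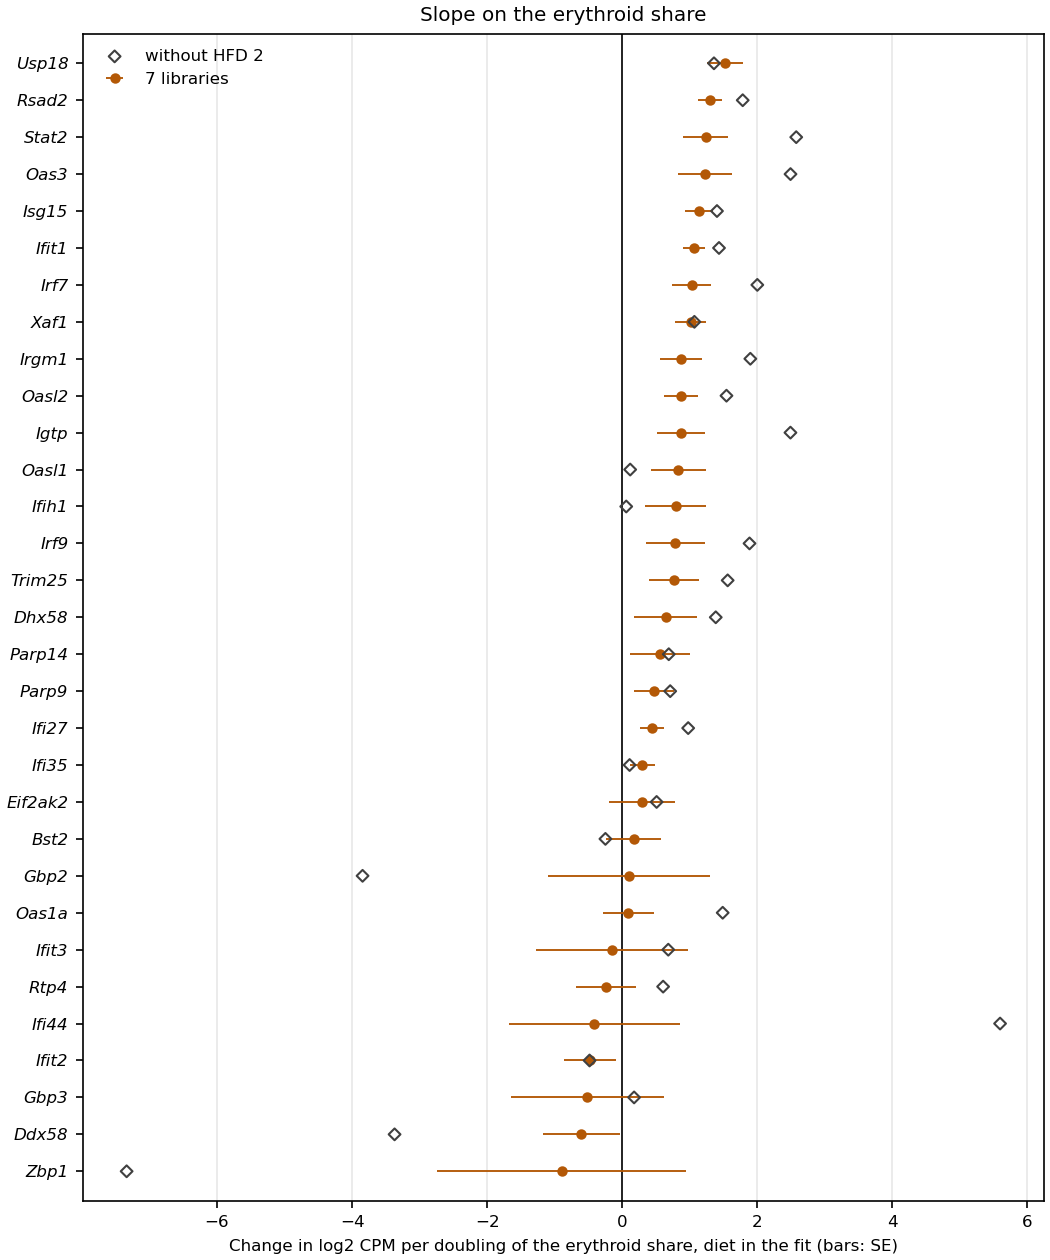
Slope of each interferon-stimulated gene against the erythroid share, in log2 units per doubling of the share with diet in the fit, with bars for the standard error and open diamonds for the slope without HFD 2, for 31 genes (Oas2, with a standard error of 4.15, is left out). Slopes run from -0.90 for Zbp1 to 1.52 for Usp18.

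White cell genes measured higher in the HFD libraries. The 12 granulocyte genes took 1.01% to 1.605% of counts in HFD libraries and 0.106% to 0.543% in LFD libraries, and the 10 monocyte and macrophage genes 0.193% to 0.204% in HFD and 0.0205% to 0.0833% in LFD. Neither pair of ranges overlapped, the exact permutation p was 0.0571 for both (adjusted p = 0.143), and 0 granulocyte genes and 1 monocyte gene were at 0 throughout LFD. Lists of plasmacytoid dendritic cells (0.000231% to 0.00079% in HFD, 0.000173% to 0.000489% in LFD) and T and NK cells (0.000637% to 0.00118% in HFD, 0% to 0.000709% in LFD, with Cd3g and Gzma at 0 throughout) were close to absent. B lineage genes took 0.00513% to 0.012% in HFD and 9.93e-05% to 0.00517% in LFD, and skeletal genes 4.97% to 7.35% in HFD and 1.93% to 4.84% in LFD. Ptprc, which encodes the leukocyte antigen CD45, measured 52.4 ± 3.21 CPM in HFD and 10.1 ± 10.5 CPM in LFD (SD, n = 3 and n = 4). Of the genes that define the sort, Cd24a, which red cell precursors also express, measured 2077 ± 1162 CPM in HFD and 3471 ± 1448 CPM in LFD and had a correlation with the erythroid share of r = 0.902, p = 0.00933, adjusted p = 0.104 in the exact permutation test, with rho = 0.964, p = 0.00278, adjusted p = 0.0538 by Spearman, and Itgb1 measured 446 ± 59.8 CPM in HFD and 426 ± 57.8 CPM in LFD. The part of any of these cells in the levels of the interferon-stimulated genes was not tested. With the granulocyte share in the fit in place of the erythroid share, the median difference between diets over the 32 genes was -1.795. No granulocyte share was common to both diets, so that fit reaches beyond the libraries and cannot separate diet from the granulocyte share.

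The other genes of the pathway, taken from lists of ligands, receptors, inducers and restraints, were split by diet in both directions, apart from the interferons themselves. All 12 interferon genes listed, Ifnb1, 6 Ifna genes, Ifng, Ifnl2, Ifnl3, Ifne and Ifnk, had 0 counts in every library. Of the 9 genes of receptors and kinases, 6 were above 0 by diet and 3 below, with a median log2 difference of 0.15 beside 0.02 over all genes, and 0 passed edgeR's adjusted threshold. Their slopes had a median of 0.11, with Jak2 positive and Ifngr2 negative at an unadjusted p under 0.05. Ifnlr1, the receptor chain specific to type III interferon, measured 3.46, 1.401 and 4.97 CPM in HFD 2, HFD 3 and HFD 4 and had 0 counts in all 4 LFD libraries, at least 85.8-fold higher in HFD when 3 counts over the LFD group were taken as the floor (edgeR, unadjusted p = 0.00129, adjusted p = 0.246). Ifnlr1 passed the filter on low counts through the HFD libraries alone, so this p-value is not independent support. Ifngr2, a chain of the interferon gamma receptor, measured 39.95 ± 13.1 CPM in HFD and 26.5 ± 5.43 CPM in LFD, a log2 difference of 0.59 ± 0.28. Jak2, a receptor kinase chosen here after its values were seen, had r = 0.991, p = 0.000992, adjusted p = 0.0476 by exact permutation with the erythroid share (rho = 0.964, p = 0.00278, adjusted p = 0.0538 by Spearman) and a slope of 0.48 ± 0.12, smaller than those of Rsad2 or Isg15.

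Of 13 tested genes that induce interferon, 7 were above 0 by diet and 6 below (median 0.18), and 0 passed edgeR's adjusted threshold. Their median slope was 0.47, and 1 of the 13, Mavs, had a positive slope at an unadjusted p under 0.05 (9.45% of all genes). Tlr7, an endosomal sensor of single-stranded RNA, measured 0.909 to 2.58 CPM in HFD libraries and had 0 counts in all LFD libraries, at least 39.2-fold higher by the same floor. Like Ifnlr1, it passed the filter through the HFD libraries alone. Mavs, the mitochondrial adaptor that RIG-I and MDA5 signal through, measured 36.2, 76.2 and 79.9 CPM in HFD 2, HFD 3 and HFD 4, against 81.8, 151, 132 and 99.6 CPM in LFD 1, LFD 2, LFD 3 and LFD 4. All HFD libraries lay below all LFD libraries, with a log2 difference of -0.86 ± 0.34 (edgeR, unadjusted p = 0.0356, adjusted p = 0.615) and a correlation with the erythroid share of r = 0.944, p = 0.000992, adjusted p = 0.0476 by exact permutation (rho = 0.929, p = 0.00675, adjusted p = 0.0704 by Spearman). Of 10 tested genes that restrain the pathway, 4 were above 0 by diet and 6 below (median -0.19), and 3 (Adar, Rnaseh2b and Rnaseh2c) had a positive slope at an unadjusted p under 0.05, against 9.45% of all genes. The smallest p for diet among them were those of Rnaseh2a (-0.59 ± 0.33), a subunit of the enzyme that clears RNA from DNA, and Samhd1 (0.50 ± 0.28), which breaks down nucleotides, and neither was under 0.05 unadjusted. Trex1 had 0 counts in every library. Both tested targets of interferon gamma had wide errors, Cxcl9 at 2.96 ± 1.99 and Cd274 at -1.07 ± 1.55.

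A further list of 34 interferon-stimulated genes, of which 31 were tested, was split more evenly by diet. There 14 were above 0 and 17 below, with a median log2 difference of -0.11, and 0 passed edgeR's adjusted threshold. At an unadjusted p under 0.05, 4 were higher in HFD (Slfn5, Slfn2, Iigp1 and Lgals3bp), against 5.18% of all genes, and 0 lower, against 2.35%. Slfn2, a Schlafen protein of lymphoid and myeloid cells, measured 31.5, 26.8 and 35.8 CPM in HFD 2, HFD 3 and HFD 4, against 3.16, 5.07, 6.599 and 11.5 CPM in LFD 1, LFD 2, LFD 3 and LFD 4. All HFD libraries were above all LFD libraries, with a log2 difference of 2.25 ± 0.43 (edgeR, adjusted p = 0.23) and a slope of 0.06 ± 0.38. Slfn5 measured 1.504, 6.76 and 4.97 CPM in HFD 2, HFD 3 and HFD 4 and at most 0.0623 CPM in LFD. It passed the filter through the HFD libraries alone, so its place among the 4 higher genes is not independent support. By slope, 8 of the 31 were positive with an unadjusted p under 0.05, Ifi47, Isg20, Cmpk2, Gbp7, Herc6, Helz2, Uba7 and Pml, against 9.45% of all genes. Of these, 3 are given here after their values were seen. Isg20, an RNA exonuclease, had a slope of 1.15 ± 0.19, Uba7, the enzyme that activates ISG15, one of 1.42 ± 0.26, and Cmpk2, the neighbour of Rsad2 in the genome, one of 1.22 ± 0.26, beside 1.297 ± 0.18 for Rsad2. Cmpk2 measured 40.6, 143 and 188 CPM in HFD 2, HFD 3 and HFD 4, against 97.97, 284, 291 and 241 CPM in LFD 1, LFD 2, LFD 3 and LFD 4, with HFD 2 and LFD 1 again the lowest libraries of their diets.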

How the data were processed

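Low-input RNA-seq libraries were made from sorted cells of femurs, per the labels' protocols (RNeasy plus micro columns, SMART-Seq v4 cDNA, Nextera XT, paired-end sequencing on a NovaSeq). The deposited values are raw read counts per Ensembl gene that the authors did not normalize. Tools named, per the submitters' processing notes, are STAR 2.5.2b, HTSeq 0.11.2, bcl2fastq 2.20, DESeq2 1.26.0 and cutadapt, with mm10 as the build. The sources used here do not state the strand setting, the annotation release or what was done with multi-mapping reads, so overlapping genes and close paralogs are uncertain. No molecular identifiers are named, so limits from counts cover counting error only. Of the 42687 identifiers 437 had no symbol in the reference name table (0.0138% to 0.0216% of counts), and they stayed in the totals.

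Groups follow the diet named in each title. Counts were filtered with filterByExpr by group, scaled by TMM and tested with edgeR 4.0.16 (R 4.3.3, robust quasi-likelihood) for diet, and for diet together with the log2 percent of counts in the erythroid list. P-values were adjusted over all 14304 genes at 0.05. The common biological coefficient of variation was 0.628. Correlations and cell type shares (log2 of percent + 0.001) used exact two-sided permutation tests, and the procedures were tested on simulated data. The 34 genes and all lists were chosen with earlier results of these data known. Values in every library are given for the 8 genes with the smallest p for diet, the 8 with the smallest p for the slope, the 3 most abundant and the 3 with the largest positive difference, and of each pathway list the 2 genes with the smallest p for diet are named. Sting1 of the induction list and Ahsp of the erythroid list are not analysed here. Another gene of the signalling pathway is not reported here. Alternatives were RLE and upper-quartile scaling, other filters, DESeq2 1.42.0, limma-voom (limma 3.58.1), 1 surrogate variable (sva 3.50.0), other erythroid measures, the granulocyte share, a replicate block and each library left out. Leaving out the 5 sex-linked genes and fitting the erythroid share as the sole term were added after seeing the data. Libraries with the same number did not deviate together (correlations -0.095, 0.0263 and -0.062), so numbers were not taken as pairs. Every pair of libraries differed by more than sampling noise, with a chi-square of at least 53.84 per degree of freedom.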

Additional observations from a re-analysis of the deposited data

Results flagged for a closer look

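Zbp1 was flagged for a sample apart from the others. It had 0 CPM in LFD 1, LFD 2 and LFD 3 and 0.593 CPM (12 counts) in LFD 4, so that LFD 4 held the whole range of the LFD group (gap over range 1.0, above Dixon's critical value for 4 samples). With 3 libraries tied at 0, this ratio is 1.0 whatever the value of LFD 4, so the flag does not measure how far LFD 4 lies. The 32 interferon-stimulated genes that passed the filter and 10 cell type shares were looked at in the 4 LFD libraries. By chance about 1 in 20 groups is flagged, a rate that does not hold for libraries tied at 0. The 3 HFD libraries, with 2.27, 2.898 and 0.382 CPM of Zbp1 in HFD 2, HFD 3 and HFD 4, are too few for this comparison.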

How the results depend on the processing

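Scaling, filters and robust fitting left the median difference by diet of the 32 genes between -0.94 and -0.89 and the median slope between 0.62 and 0.77. The number of genes called by diet out of all tested, 5 in edgeR, was 8 with no filter beyond 1 count, 0 with 10 counts in 4 libraries, 291 with DESeq2, 28 with limma-voom, 2 with 1 surrogate variable, 0 with the sex-linked genes left out and 1 to 6 with each library left out. Interferon-stimulated genes called by diet numbered 0 in edgeR, 4 with DESeq2 and 1 with limma-voom. With 1 surrogate variable the median by diet was -0.261, and 8 genes turned from below to above 0 (Eif2ak2, Ifi44, Igtp, Irf9, Irgm1, Oas3, Trim25 and Stat2, the last to 0.442).

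For the slope, 0 genes called in edgeR became 775 with DESeq2, 318 with limma-voom, 805 with the erythroid list without globin genes, 370 with the percent not logged, 584 with the erythroid share as the sole term and 0 to 464 with each library left out. The interferon-stimulated genes among them numbered 9, 3, 11, 4, 7 and 0 to 6 in the same order. The slope of Oas1a turned to -0.005 with globin genes as the measure, and Rtp4 to 0.026 without globin genes and 0.362 as the sole term, where Parp14 turned to -0.013. With each library left out, slopes ran from -0.059 to 1.487 for Oas1a and from -0.407 to 0.605 for Rtp4.

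At equal erythroid share, 1 gene called became 2 with no filter, 0 with the stricter filter, 65 with DESeq2 (1 interferon-stimulated gene), 0 with limma-voom, 0 with the granulocyte share, 0 without sex-linked genes and 0 to 1 with each library left out. Values near 0 changed sign. Rsad2, at 0.016, was -0.023 with RLE, -0.049 with upper quartile, -0.022 without the erythroid list, -0.023 with DESeq2, -0.002 with limma-voom, -0.022 with globin genes and -0.195 without them. Isg15, at 0.002, was -0.037, -0.067, -0.038, -0.037, -0.106, -0.055 and -0.124 in the same order and -0.001 with the stricter filter. Usp18, at 0.04, was -0.03 with upper quartile, -0.206 with limma-voom, -0.023 with globin genes and -0.177 without them, and Xaf1, at -0.092, was 0.083 with the percent not logged.

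With the granulocyte share in place of the erythroid share the median was -1.795, and Rsad2 was -1.975, Usp18 -2.419, Isg15 -2.010, Stat2 -2.022, Zbp1 -0.884 and Parp14 -1.202. The edgeR adjusted p was 0.996 for Zbp1 and 0.994 for the others named. Ranges of the granulocyte share did not overlap between diets, so these values cannot separate diet from that share. With each library left out, the values at equal share ran from -0.141 to 0.209 for Rsad2, -0.313 to 0.658 for Usp18, -0.236 to 0.471 for Isg15, -0.263 to 0.038 for Xaf1, -0.026 to 3.85 for Zbp1, -0.045 to 1.326 for Ddx58 and -1.11 to 0.50 for Dhx58. Zbp1 and Ddx58 turned without HFD 2, and Dhx58 without HFD 4. The count of 17 positive correlations ran from 8 to 17. The cause of these changes was not tested.

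With the replicate number as a block, edgeR called 0 genes by diet, 0 by slope and 0 at equal share. The median by diet was -1.106, the median slope 0.590 and the median at equal share -0.42, where 27 of the 32 genes were below 0 and 5 above, and the values at equal share were -0.045 for Rsad2, -0.167 for Usp18, -0.223 for Isg15 and -0.966 for Zbp1. LFD 1 shares its number with no HFD library and adds nothing to diet in that fit. With the erythroid share added, the block fit has almost as many terms as libraries.

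With 3 and 4 libraries and a biological coefficient of variation of 0.628, single genes carry wide errors, and genes at a few CPM such as Zbp1, Oas2, Ifi44 and Gbp3 set no direction.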
